A study of Mus musculus with 12 samples.

Results

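The megakaryocyte and platelet genes described here are Pf4, Itga2b, Gp9, Gp5, Gp6, Gp1bb, Treml1, Vwf, Plek and Rab27b, 10 genes taken by symbol from the 39017 genes of the deposited raw count table. Their RNA was measured by sequencing of LSK cells, the lineage-negative, Sca1-positive, cKit-positive bone marrow fraction that holds blood stem cells and early progenitors. The 12 libraries came from mice on a mixed C57BL/6J and Sv/129 background and fall into 4 labelled groups of 3, and the study asked how activated Notch1 and loss of Tcf7, alone or together, change expression in these cells. The group labelled NOTCHWT_TCFWT carried wild-type alleles and received a control injection of 2 ug/g poly(I:C). The group labelled NICD_TCFWT carried R26 N1IC lox/+ and Mx1Cre, so that Cre, driven by an interferon-inducible promoter and switched on by the same dose of poly(I:C), releases the intracellular part of Notch1 from the Rosa26 locus. The group labelled NICD_TCFKO carried the same alleles and Tcf7 lox/lox, and the group labelled NOTCHWT_TCFKO carried Tcf7 lox/lox and Mx1Cre without the Notch1 transgene. Both of these groups also received 2 ug/g poly(I:C). LSK cells of both NICD groups were also sorted as CD45.2+ and eGFP+, a gate the other groups did not have, so that the gate and the Notch1 label cannot be told apart. The wild-type label names no Cre, so that Cre and the altered alleles cannot be told apart in comparisons with it, and Mx1Cre acts in many blood and non-blood cells. Age was not among the labels used here, and they do not say whether replicates were separate mice. A p-value therefore speaks of the scatter among the sequenced samples, which may be technical.

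Megakaryocytes are the large bone marrow cells that shed platelets, and they arise from stem cells both through shared progenitors and from stem cells that already carry platelet RNAs. Platelets stick to a damaged vessel wall when the glycoprotein Ib-IX-V complex (Gp1ba, Gp1bb, Gp9, Gp5) binds von Willebrand factor (Vwf), and they are joined to each other by fibrinogen bound to the integrin of Itga2b and Itgb3. Their alpha granules release Pf4 and other cargo, and transcription factors of the GATA, ETS, RUNX and NF-E2 families drive these genes. RNA of such genes in LSK cells is known from stem cells with a platelet bias. In bulk libraries, fewer cells with a transcript and less of it per cell cannot be told apart.

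The labelled alleles were checked first. Tcf7 (chr11:52252371-52283014, mm10) stood at 14.8 ± 4.54 CPM (counts scaled to a common library size; SD, n = 3) in the libraries labelled NOTCHWT_TCFWT, 5.50 ± 1.11 in NICD_TCFWT, 603 ± 299.9 in NICD_TCFKO and 1.28 ± 1.31 in NOTCHWT_TCFKO. Its level was thus highest in a group labelled as Tcf7 knockout. Which exons the deletion removes is not given in the sources used here, and reads outside them check nothing. Notch1 was at 570.5 ± 44.4, 180 ± 19.9, 774 ± 160 and 149 ± 46.7 CPM in the same order, and Dtx1, a well-known Notch target, at 85.4, 0.124, 121 and 0.208. These levels go partly against the labels, so every group below is named as its libraries are labelled, and a direction is a direction between labels. Of the genes of the gate, Kit was at 609.7 to 977.7 CPM in all libraries. Ly6a, which encodes Sca1, was at 123, 73.0, 102 and 37.5 CPM by group mean in the same order, and lower in NOTCHWT_TCFKO than in NOTCHWT_TCFWT (log2 difference -1.71 ± 0.25, adjusted p = 0.00104). The libraries held 30453271 to 43790674 counts, all carry batch 1, and Y-linked transcripts passed 10 CPM in 0, 2, 1 and 2 of 3 libraries in the order above.

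Promoter sequence is shown for 4 members because 3 of them, Pf4, Gp9 and Treml1, had like profiles over the libraries while Gp5 had a flat one in 3 of the groups. Each line gives the 250 bases before the gene's start, 5′ to 3′ on the gene's strand, from RefSeq on GRCm38.p6. Capitals mark matches, on either strand, to 4 motifs: for GATA factors AGATAA or AGATAG or TGATAA or TGATAG, for ETS factors AGGAAG or CGGAAG, for RUNX factors TGTGGT or TGCGGT, and for NF-E2 the core TGAGTCA. No matches overlap in the lines shown. A match is a description of letters, not a site.
Pf4, chr5:90772185-90772434, plus strand: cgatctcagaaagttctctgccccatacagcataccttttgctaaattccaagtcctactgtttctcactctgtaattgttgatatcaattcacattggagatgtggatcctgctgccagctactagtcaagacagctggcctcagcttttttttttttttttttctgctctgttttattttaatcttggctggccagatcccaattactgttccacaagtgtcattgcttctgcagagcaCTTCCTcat
Gp9, chr6:87777820-87778069, plus strand: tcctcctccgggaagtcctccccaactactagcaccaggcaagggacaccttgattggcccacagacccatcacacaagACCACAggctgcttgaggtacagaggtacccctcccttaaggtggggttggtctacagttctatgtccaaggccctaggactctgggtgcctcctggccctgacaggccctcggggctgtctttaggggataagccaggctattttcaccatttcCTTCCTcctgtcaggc
Treml1, chr17:48359666-48359915, plus strand: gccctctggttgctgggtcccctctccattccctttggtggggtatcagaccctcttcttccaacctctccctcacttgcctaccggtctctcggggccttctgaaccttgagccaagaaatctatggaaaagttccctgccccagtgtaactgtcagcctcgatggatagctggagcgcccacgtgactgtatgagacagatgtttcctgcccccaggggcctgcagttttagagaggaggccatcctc
Gp5, chr16:30310782-30311031, minus strand: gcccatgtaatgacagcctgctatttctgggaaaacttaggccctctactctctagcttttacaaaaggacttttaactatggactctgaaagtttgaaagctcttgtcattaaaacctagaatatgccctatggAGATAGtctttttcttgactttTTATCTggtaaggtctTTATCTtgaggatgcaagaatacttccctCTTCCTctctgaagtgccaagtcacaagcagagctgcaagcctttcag
Pf4 has an ETS match that ends 4 bases before its start, and Gp9 one that ends 11 bases before, with a RUNX match farther up at 171 to 166 bases. Treml1 has no match to any of the 4 motifs in this window. Gp5 has 3 GATA matches, at 115, 93 and 77 bases before its start, and an ETS match at 48. RefSeq promoters were found for 8 of the 10 members, with none matched for Vwf and Rab27b. An ETS match was in 5 of the 8 (Gp1bb, Gp5, Gp9, Itga2b and Pf4), against 39.2% of all 32851 promoters searched over the same length. A GATA match was in 3 (Gp1bb, Gp5 and Gp6), against 26.5%, a RUNX match in 1 (Gp9), against 18.6%, and the NF-E2 core in 0, against 4.46%.

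Of the 10 members, 9 had counts and passed the filter on low counts, and Gp6, the platelet collagen receptor (chr7:4363965-4397744), had 0 counts in all 12 libraries, out of 459009766 counts. That 0 allows up to 3 counts, or 0.0992 CPM in the shallowest library, and this floor covers counting error only. Per kilobase of exon, the highest level was that of Plek, at 29.8 to 52.5 CPM per kb over the 4 group means, and Itga2b followed at 18.4 to 35.0. Pf4 ranged most widely on this scale, from 0.970 CPM per kb in NOTCHWT_TCFWT to 31.7 in NICD_TCFWT. Gp9 lay at 3.94 to 16.9 and Gp5 at 1.91 to 5.31 CPM per kb, while Treml1, Vwf and Rab27b stayed under 4 and Gp1bb under 1.

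Pf4 had the largest differences of the members in the contrasts of single labels. Pf4 (platelet factor 4, a heparin-binding chemokine of alpha granules; chr5:90772435-90773383, plus strand) read 0.981, 0.628 and 0.490 CPM in the 3 NOTCHWT_TCFWT libraries. It was at 20.0, 15.8 and 32.8 CPM in NICD_TCFWT, at 1.05, 0.315 and 2.62 in NICD_TCFKO, and at 13.9, 12.4 and 6.23 in NOTCHWT_TCFKO. Every library of NICD_TCFWT and of NOTCHWT_TCFKO was thus above every library of the other groups, and NOTCHWT_TCFWT and NICD_TCFKO overlapped. The mean rose 32.6-fold from NOTCHWT_TCFWT to NICD_TCFWT (log2 fold change 5.03 ± 0.72 SE, adjusted p = 0.0012; edgeR quasi-likelihood F test, Benjamini-Hochberg adjusted over 16024 genes, as for every adjusted p below). Vwf, which bridges exposed collagen and the glycoprotein Ib receptor (chr6:125546774-125686679, plus strand), was at 10.7, 8.86 and 11.8 CPM in NOTCHWT_TCFWT and at 63.1, 35.9 and 75.5 in NICD_TCFWT. In NICD_TCFKO it was at 15.5, 6.61 and 23.5 CPM, and in NOTCHWT_TCFKO at 29.0, 37.8 and 23.1. Vwf followed the order of Pf4, but with smaller steps, and NICD_TCFKO overlapped both NOTCHWT groups. Vwf is also made by endothelial cells, whose 7 marker genes summed to 192.7 to 251.4 CPM in NOTCHWT_TCFWT, 303.4 to 320 in NICD_TCFWT, 220.5 to 269.3 in NICD_TCFKO and 215.8 to 304.9 in NOTCHWT_TCFKO. Most of each sum was Pecam1 and Tie1, and Cdh5 and Cldn5 were under 0.4 CPM in each group mean. Of the 7, 1 was called higher and 1, Kdr, lower in NICD_TCFWT than in NOTCHWT_TCFWT. Over all tested genes 20.4% were called there. The part of endothelial cells in the Vwf difference was not tested.

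**Figure D1:**
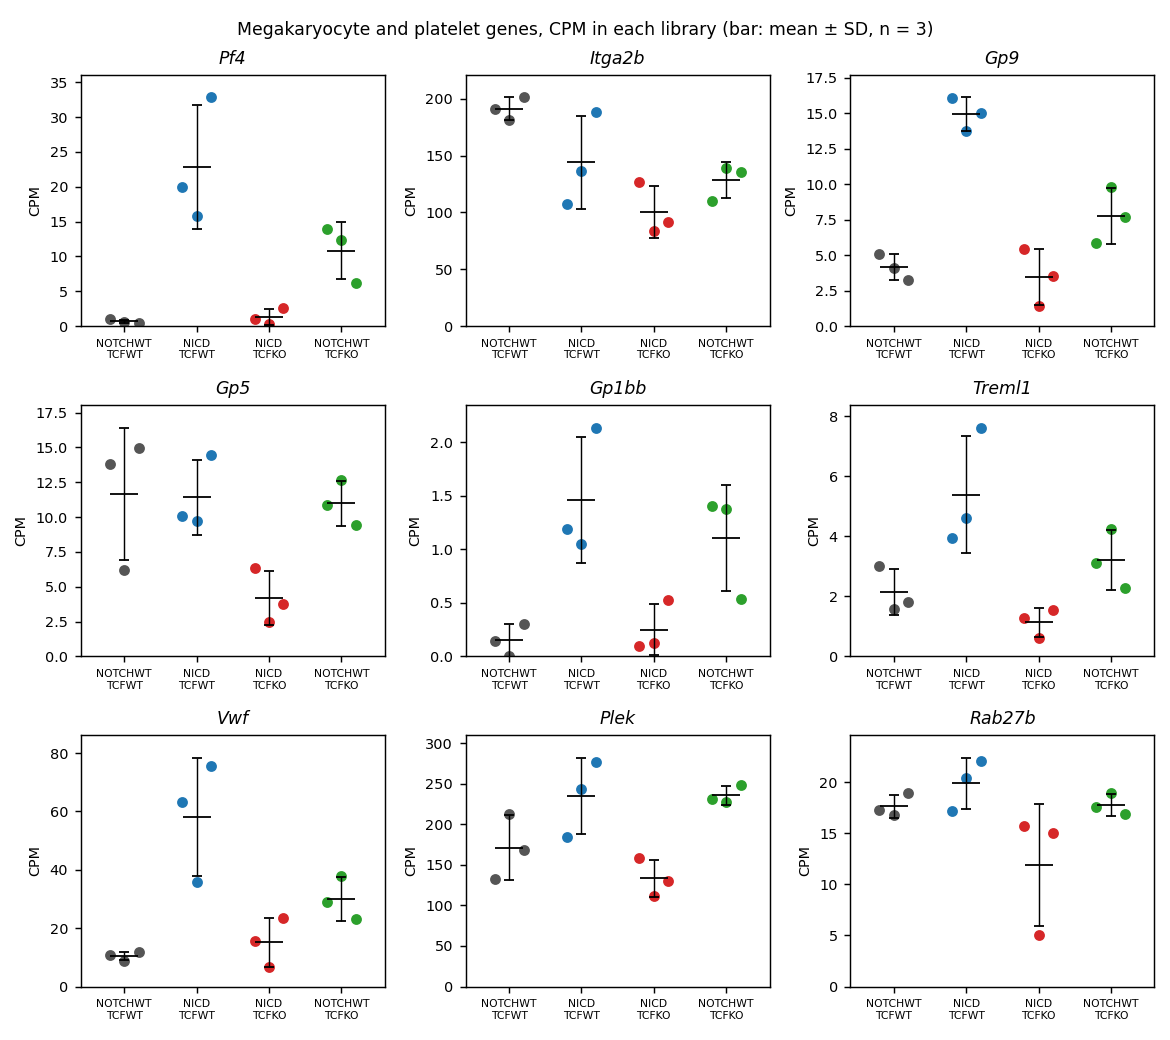
Level of the 9 detected members in each library (vertical axis, CPM on a linear scale from 0; horizontal axis, the 4 labelled groups). Points are libraries and bars give the mean ± SD of 3; Pf4 lies at 15.8 to 32.8 CPM in NICD_TCFWT and at 0.490 to 0.981 in NOTCHWT_TCFWT, while Gp5 and Rab27b have their lowest group mean in NICD_TCFKO.

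The von Willebrand receptor genes did not move as a block. Gp9 (chr6:87778072-87779768, plus strand), the small subunit needed for the complex to reach the surface, was at 5.11, 4.10 and 3.24 CPM in NOTCHWT_TCFWT and at 16.1, 13.7 and 15.0 in NICD_TCFWT. It was at 5.40, 1.45 and 3.56 CPM in NICD_TCFKO and at 5.84, 9.77 and 7.66 in NOTCHWT_TCFKO. The NICD_TCFWT libraries were above the other 9, and those of NOTCHWT_TCFKO lay between them and the rest. Gp1bb (chr16:18620317-18622403, minus strand), the beta chain of glycoprotein Ib, had 339 counts over all 12 libraries. Its levels were 0.144, 0 and 0.303 CPM in NOTCHWT_TCFWT and 1.19, 1.05 and 2.14 CPM in NICD_TCFWT. The NICD_TCFKO libraries were at 0.100, 0.121 and 0.523 CPM and those of NOTCHWT_TCFKO at 1.4004, 1.38 and 0.533. Gp1bb was high in the same groups as Pf4, but it overlaps Sept5 (chr16:18620502-18629954) on the same strand, so reads shared by both genes are uncertain. Sept5 itself stood at 1.14 to 7.20 CPM over the libraries. Gp5 (chr16:30307685-30310779, minus strand), the subunit cleaved by thrombin, was at 13.8, 6.21 and 15.0 CPM in NOTCHWT_TCFWT, 10.04, 9.69 and 14.5 in NICD_TCFWT, and 10.9, 12.6 and 9.46 in NOTCHWT_TCFKO. In NICD_TCFKO it was at 6.33, 2.47 and 3.79 CPM. The first 3 of these groups overlapped, with log2 differences between neighbours of 0.03 ± 0.37 and 0.05 ± 0.37, and every NICD_TCFKO library lay below theirs except for the second NOTCHWT_TCFWT library, at 6.21 CPM.

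Of the other surface genes, Itga2b (chr11:102453297-102470122, minus strand), which encodes the CD41 integrin chain, was at 191, 181 and 201 CPM in NOTCHWT_TCFWT. It was at 108, 136 and 188 CPM in NICD_TCFWT. The libraries of NICD_TCFKO read 126, 83.7 and 91.6 CPM and those of NOTCHWT_TCFKO 110, 139 and 136. Its order of groups was not that of Pf4: it was highest in NOTCHWT_TCFWT, and no step between neighbouring groups passed the test (adjusted p 0.18 to 0.66). Treml1 (chr17:48359916-48367176, plus strand), an alpha granule receptor of platelets and megakaryocytes, was at 3.03, 1.59 and 1.82 CPM in NOTCHWT_TCFWT and at 3.94, 4.63 and 7.63 in NICD_TCFWT. In NICD_TCFKO it was at 1.28, 0.605 and 1.54 CPM and in NOTCHWT_TCFKO at 3.12, 4.25 and 2.28. NICD_TCFKO was below all other libraries for this gene.

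Inside the cell, Plek (pleckstrin, the main protein kinase C substrate of platelets, also made by other blood cells; chr11:16971206-17052381, minus strand) was at 132.8, 212 and 169 CPM in NOTCHWT_TCFWT. It was at 184, 244 and 277 CPM in NICD_TCFWT. The libraries of NICD_TCFKO read 158, 112 and 130.5 CPM and those of NOTCHWT_TCFKO 231, 227 and 248. NICD_TCFWT and NOTCHWT_TCFKO had like means, 235.1 ± 46.9 and 235.6 ± 11.3, and NICD_TCFKO lay below both. Rab27b (chr18:69979131-70141605, minus strand), a small GTPase of granule release, was at 17.3, 16.8 and 18.9 CPM in NOTCHWT_TCFWT, 17.2, 20.4 and 22.1 in NICD_TCFWT, and 17.5, 18.9 and 16.9 in NOTCHWT_TCFKO. In NICD_TCFKO it was at 15.7, 5.06 and 15.0 CPM, below the other groups in every library, most of all in the second. Rab27b passed the test in no contrast, by edgeR or by the alternatives run, and its smallest unadjusted p was 0.0433, between NICD_TCFKO and NICD_TCFWT.

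The first contrast asks what the Notch1 transgene label does where Tcf7 is labelled intact. Against NOTCHWT_TCFWT, 5 of the 9 tested members were higher in NICD_TCFWT and 0 were lower: Pf4, Gp1bb, Vwf, Gp9 and Treml1. Over all genes tested 20.4% were called in this contrast and 10.6% were called higher, and the median log2 change of the members was 1.33 against 0.00 for all tested genes. Gp1bb was higher by 3.20 ± 0.90 on the log2 scale (adjusted p = 0.0288), Vwf by 2.47 ± 0.43 (adjusted p = 0.00367), Gp9 by 1.85 ± 0.39 (adjusted p = 0.00787) and Treml1 by 1.33 ± 0.41 (adjusted p = 0.0436). Itga2b (-0.41 ± 0.20), Gp5 (-0.03 ± 0.37), Plek (0.46 ± 0.19) and Rab27b (0.17 ± 0.32) did not pass, though Itga2b did without NICD_TCFWT 3 and Plek without NOTCHWT_TCFWT 2. The calls of Pf4, Vwf and Gp9 were kept when any of the 12 libraries was left out. That of Gp1bb was lost without NOTCHWT_TCFWT 1 or 2 or any NICD_TCFWT library. That of Treml1 was lost without NOTCHWT_TCFWT 2 or 3, any NICD_TCFWT library, NICD_TCFKO 1 or NOTCHWT_TCFKO 1, and in 2 of the 9 other alternatives, among them a covariate for library sets (libraries grouped by the sample numbers in their titles).

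The second contrast sets the Tcf7 deletion label against an intact one, both with the Notch1 transgene label; Tcf7 RNA itself was higher in the group labelled as deleted (log2 fold change 6.78 ± 0.71, adjusted p = 0.000681). From NICD_TCFWT to NICD_TCFKO 6 of the 9 members fell and 0 rose, where 12.4% of all tested genes were called and 5.15% fell. The members' median log2 change was -1.94, against 0.00 over all tested genes, and all 9 estimates were below 0. Pf4 fell by 4.10 ± 0.68 on the log2 scale (adjusted p = 0.00478), Treml1 by 2.24 ± 0.43 (adjusted p = 0.0082), Gp9 by 2.10 ± 0.39 (adjusted p = 0.00738) and Vwf by 1.94 ± 0.42 (adjusted p = 0.0173). Gp5 fell by 1.44 ± 0.38 (adjusted p = 0.0325) and Plek by 0.82 ± 0.19 (adjusted p = 0.0204). Gp1bb had the second-largest estimate, -2.54 ± 0.86, with an adjusted p of 0.0759, and it passed with DESeq2, limma-voom, the covariate for library sets and that for Y-linked transcripts, and without NOTCHWT_TCFWT 2. A pair of libraries stood apart here: NICD_TCFKO 2 was the lowest of all 12 for 8 of the 9 members, and NICD_TCFWT 3 the highest of all 12 for 6. Without NICD_TCFKO 2 the calls of Gp5 and Plek were lost, and without NICD_TCFWT 3 those of Gp5, Plek and Vwf, which left 3. Without NICD_TCFWT 1 the calls of Gp5 and Vwf were lost, without NICD_TCFWT 2 or NICD_TCFKO 3 those of Gp5 and Plek, and without NOTCHWT_TCFKO 1 that of Gp5. Vwf also lost its call in a model of these 6 libraries alone, and Itga2b (-0.52 ± 0.20) gained one without NICD_TCFKO 1. Pf4, Gp9 and Treml1 kept their calls without any library, with a log2 change of Pf4 between -5.05 and -3.62.

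The third contrast sets the same Tcf7 labels against each other without the Notch1 transgene, and here Tcf7 RNA was lower in the group labelled as deleted (-3.55 ± 0.68, adjusted p = 0.00603). From NOTCHWT_TCFWT to NOTCHWT_TCFKO 3 of the 9 members rose and 0 fell, with 21.3% of all tested genes called and 10.8% called higher. The 3 were Pf4, at 3.95 ± 0.69 on the log2 scale (adjusted p = 0.0032), Gp1bb, at 2.80 ± 0.89 (adjusted p = 0.0464), and Vwf, at 1.52 ± 0.42 (adjusted p = 0.0288). Gp9 (0.90 ± 0.38, adjusted p = 0.119) and Plek (0.46 ± 0.19, adjusted p = 0.11) were higher in every library of NOTCHWT_TCFKO but did not pass, and Itga2b was lower in every one (-0.57 ± 0.20, adjusted p = 0.0673). Pf4 kept its call without any library. Gp1bb lost it without NOTCHWT_TCFWT 1 or 2, any NICD_TCFWT library, NICD_TCFKO 2 or NOTCHWT_TCFKO 1 or 2, and Vwf without any NOTCHWT_TCFWT library or without NOTCHWT_TCFKO 1 or 2. With no filter on low counts Pf4 alone passed, Gp1bb also lost its call in a model of these 6 libraries, and Vwf with limma-voom. Leaving out NICD_TCFKO 2 let Gp9 pass, NOTCHWT_TCFWT 2 let Plek pass, and NICD_TCFWT 1 or 3 or NICD_TCFKO 1 let Itga2b pass, as did DESeq2 and the model of these 6 libraries.

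Between the groups that both carry the Tcf7 deletion label, 4 of the 9 members were lower in NICD_TCFKO than in NOTCHWT_TCFKO and 0 were higher. In this contrast 18.4% of all tested genes were called and 8.06% were called lower. The log2 difference was -3.03 ± 0.65 for Pf4 (adjusted p = 0.0117), -1.49 ± 0.42 for Treml1 (adjusted p = 0.0326), -1.39 ± 0.38 for Gp5 (adjusted p = 0.0295) and -0.82 ± 0.19 for Plek (adjusted p = 0.0151). Gp9 (-1.16 ± 0.39, adjusted p = 0.059) and Gp1bb (-2.14 ± 0.85, adjusted p = 0.106) did not pass, although no library overlapped between the groups. Both passed in 2 of the 9 other alternatives, DESeq2 among them, as did Vwf (-0.98 ± 0.41). For Gp9 the second was limma-voom, and Gp9 also passed without NICD_TCFKO 1. The number of calls depended on the model: DESeq2 called 7 members, and a model of these 6 libraries alone called only Plek. Leaving out NICD_TCFKO 2 left 1 call, that of Pf4, and leaving out NOTCHWT_TCFKO 1 or 2 left 2, those of Pf4 and Plek. Treml1 was also lost without NICD_TCFKO 1, and Gp5 without NICD_TCFKO 3.

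The remaining contrasts compare groups whose labels differ in both loci. Against NOTCHWT_TCFWT, the libraries labelled NICD_TCFKO had 2 of the 9 members lower and 0 higher, with 6.3% of all tested genes called and 2.3% called lower. The 2 were Gp5 (-1.48 ± 0.38, adjusted p = 0.0455), whose libraries overlapped, and Itga2b (-0.93 ± 0.20, adjusted p = 0.0248), whose libraries did not. The call of Itga2b was lost without any 1 of the NOTCHWT_TCFWT libraries and without NICD_TCFKO 2 or 3. That of Gp5 was kept only without NOTCHWT_TCFWT 2 or NICD_TCFKO 1, and was lost in 6 of the 9 other alternatives. Pf4 did not differ by the test (0.92 ± 0.65, adjusted p = 0.457). Between NOTCHWT_TCFKO and NICD_TCFWT, where 2.87% of all tested genes were called, 0 of the 9 members passed the edgeR test, 2 had an unadjusted p under 0.05 (Gp9 and Vwf), and DESeq2 called 0. The estimates ran from -1.08 ± 0.60 for Pf4 to 0.00 ± 0.19 for Plek.

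**Figure D2:**
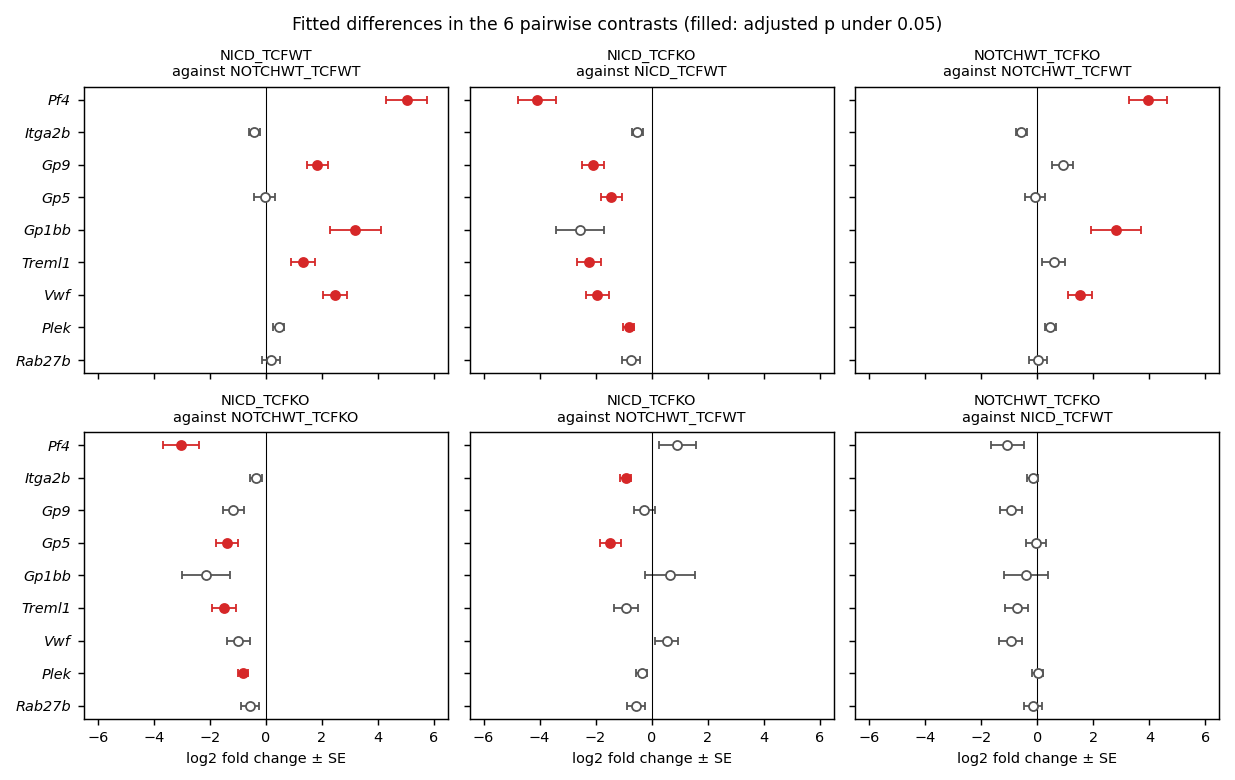
Log2 fold change of each detected member (horizontal axis, first group minus second, bars ± SE of the edgeR fit) in the 6 pairwise contrasts. Filled red points have an adjusted p under 0.05; Pf4 is at 5.03 in NICD_TCFWT against NOTCHWT_TCFWT and at -4.10 in NICD_TCFKO against NICD_TCFWT, and Rab27b is filled in no panel.

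The interaction asks whether the change between the Tcf7 labels differed with the Notch1 label, as the change within the NICD groups minus that within the NOTCHWT groups; these changes share no library. It was called for 6 of the 9 members, all below 0, where 27.4% of all tested genes were called and 13.5% were below 0. Pf4 had an interaction of -8.06 ± 0.97 on the log2 scale (adjusted p = 0.000257), being higher under the Tcf7 deletion label without the Notch1 transgene and lower with it. Gp1bb (-5.34 ± 1.24, adjusted p = 0.00876), Vwf (-3.45 ± 0.60, adjusted p = 0.00227) and Gp9 (-3.01 ± 0.55, adjusted p = 0.00241) had the same signs. Treml1 (-2.82 ± 0.59, adjusted p = 0.00518) and Plek (-1.28 ± 0.27, adjusted p = 0.00553) completed the 6. All 6 kept their calls without any library and in the 8 other alternatives that could fit an interaction. Itga2b (0.06 ± 0.28, adjusted p = 0.908), Rab27b (-0.75 ± 0.45, adjusted p = 0.254) and Gp5 (-1.35 ± 0.53, adjusted p = 0.0809) were not called; Gp5 passed with DESeq2 and without NICD_TCFKO 1.

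**Figure D3:**
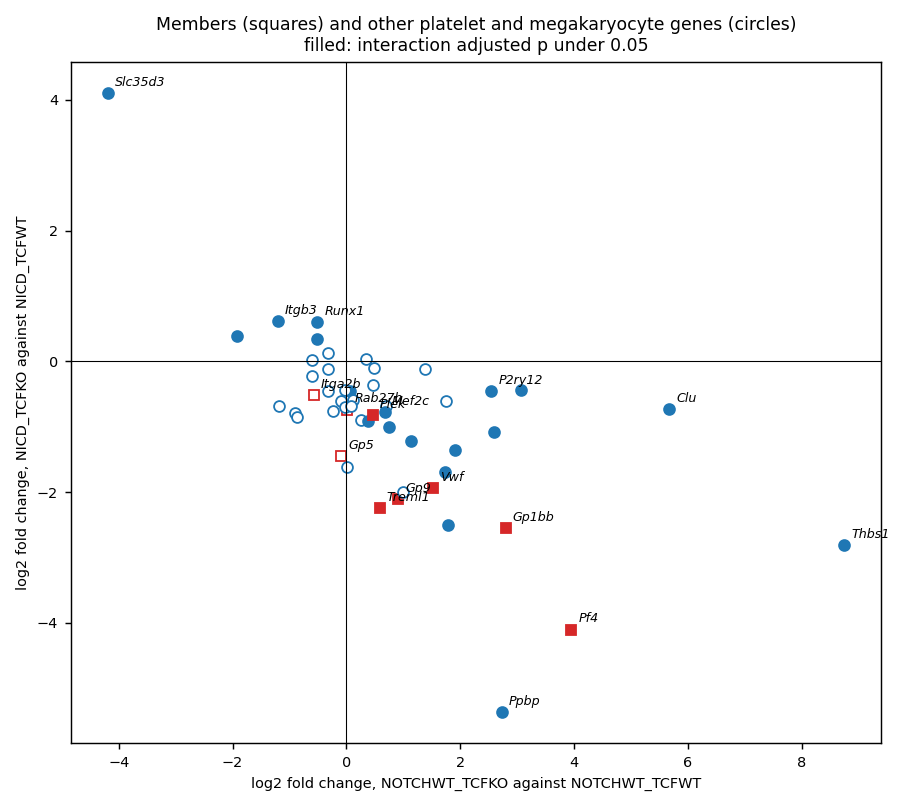
Log2 fold change between the Tcf7 labels without the Notch1 transgene (horizontal axis) and with it (vertical axis) for the 9 members (red squares) and 42 other tested platelet and megakaryocyte genes (blue circles); filled symbols have an interaction with adjusted p under 0.05. Pf4 lies at 3.95 and -4.10, and Slc35d3 at the opposite corner, at -4.20 and 4.11.

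The wider set held 43 platelet and megakaryocyte genes, of which 42 were tested (Myl9 was not). It had calls in both directions in contrasts where the members' calls all had 1 direction. The members' estimates were mixed too, with 7 above 0 and 2 below in NICD_TCFWT and in NOTCHWT_TCFKO, each against NOTCHWT_TCFWT. Both sets were chosen with earlier results of these data known, so setting 1 beside the other is a description only. Between NICD_TCFWT and NOTCHWT_TCFWT 8 of the 42 were higher and 6 lower, and from NOTCHWT_TCFWT to NOTCHWT_TCFKO 8 rose and 7 fell. From NICD_TCFWT to NICD_TCFKO 2 rose and 6 fell, and against NOTCHWT_TCFKO NICD_TCFKO had 4 higher and 9 lower. Against NOTCHWT_TCFWT, NICD_TCFKO had 1 higher and 5 lower, and NOTCHWT_TCFKO against NICD_TCFWT had 1 higher (Slc35d3). The interaction was called above 0 for 5 and below 0 for 14. The 14 calls of the first contrast became 6 to 9 without NOTCHWT_TCFWT 1 or 3 or any NICD_TCFWT library. The 15 from NOTCHWT_TCFWT to NOTCHWT_TCFKO became 9 without replicate 1 of either group. The 8 from NICD_TCFWT to NICD_TCFKO became 5 without NICD_TCFWT 1 or NICD_TCFKO 2, and 13 without NICD_TCFKO 1. The 13 between NICD_TCFKO and NOTCHWT_TCFKO became 5 to 8 without NICD_TCFKO 2 or 3 or NOTCHWT_TCFKO 1 or 2, and the 6 against NOTCHWT_TCFWT became 2 without NOTCHWT_TCFWT 1 or NICD_TCFKO 3 and 10 without NICD_TCFKO 1. The shares of all tested genes called in these contrasts are those given above.

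Among 13 receptor and adhesion genes, 2 were higher and 3 lower in NICD_TCFWT than in NOTCHWT_TCFWT. In this contrast 20.4% of all tested genes were called in either direction. Itgb3, the partner chain of Itga2b, fell by 1.03 ± 0.31 on the log2 scale from NOTCHWT_TCFWT (63.7 ± 6.40 CPM) to NICD_TCFWT (31.2 ± 15.95; adjusted p = 0.0414) and by 1.21 ± 0.31 to NOTCHWT_TCFKO (27.6 ± 6.90; adjusted p = 0.0211). In NICD_TCFKO it was at 48.0 ± 9.40 CPM, and its interaction, 1.83 ± 0.44 (adjusted p = 0.0119), was opposite in sign to that of Pf4. Gp1ba, the ligand-binding chain of glycoprotein Ib, was at 12.9 ± 4.66 CPM in NOTCHWT_TCFWT and lower in NOTCHWT_TCFKO (log2 difference -1.19 ± 0.33, adjusted p = 0.0257) and in NICD_TCFKO (-1.50 ± 0.33, adjusted p = 0.025). Gp1ba and Gp1bb thus had called differences of opposite sign between NOTCHWT_TCFKO and NOTCHWT_TCFWT. P2ry12, the ADP receptor targeted by clopidogrel, was at 0.228 CPM in NOTCHWT_TCFWT and 1.35 in NOTCHWT_TCFKO (2.54 ± 0.38, adjusted p = 0.00104). F2rl2, a protease-activated receptor, was at 5.91 ± 1.43 CPM in NOTCHWT_TCFWT and 1.16 ± 0.38 in NICD_TCFKO (-2.35 ± 0.38, adjusted p = 0.0067).

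Of 10 genes of granule cargo and secretion, 6 had a called interaction, 5 below 0 and 1 above, against 27.4% of all tested genes. Ppbp, a chemokine stored beside Pf4, had 11, 130, 3 and 87 counts in NOTCHWT_TCFWT, NICD_TCFWT, NICD_TCFKO and NOTCHWT_TCFKO. Relative to NICD_TCFKO its pooled level was 46.7 times as high in NICD_TCFWT (exact binomial 95% interval 15.6 to 229, counting error only) and 30.2 times in NOTCHWT_TCFKO (9.99 to 149). Clu (clusterin) was at 0.0587 ± 0.032 CPM in NOTCHWT_TCFWT and at 3.50 ± 1.42, 2.12 ± 0.33 and 3.06 ± 0.32 in NICD_TCFWT, NICD_TCFKO and NOTCHWT_TCFKO, so that the NOTCHWT_TCFWT libraries lay apart from all others. Slc35d3, a transporter needed for platelet dense granules, had group means in the reverse order of those of Pf4. It was at 340, 296.5 and 246 CPM in NOTCHWT_TCFWT and at 6.19, 4.86 and 9.01 CPM in NICD_TCFWT. The NICD_TCFKO libraries read 106, 142 and 97.3 CPM and the NOTCHWT_TCFKO libraries 12.95, 14.1 and 21.1, with no overlap between any groups and an interaction of 8.30 ± 0.40 (adjusted p = 6.82e-07).

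The cytoskeleton, enzyme and signalling list had 9 genes, 8 of them tested, and 5 had a called interaction, 4 below 0 and 1 above. Over all tested genes 27.4% had one. Tubb1, the platelet beta-tubulin, stayed under 1.6 CPM in all libraries and was called in no contrast (smallest adjusted p 0.0504). Fermt3 (kindlin-3, which activates platelet integrins) was at 308 ± 22.3 CPM in NOTCHWT_TCFWT, 399 ± 10.3 in NICD_TCFWT and 290 ± 29.7 in NICD_TCFKO, with a log2 difference of -0.46 ± 0.09 between the last pair (adjusted p = 0.007). Among 11 megakaryocyte transcription factors, 1 was higher and 1 lower in NICD_TCFWT than in NOTCHWT_TCFWT, and 1 rose and 2 fell from NICD_TCFWT to NICD_TCFKO. Over all tested genes, 20.4% were called in the first of these contrasts and 12.4% in the second. The first count is near the share over all genes. Gata1 and Nfe2 were called in no contrast (smallest adjusted p 0.191 and 0.0865). Gata1 stood at 11.96 to 93.3 CPM and overlapped among all groups, and Nfe2 had group means of 227 to 284 CPM. Fli1, an ETS factor, passed only from NOTCHWT_TCFWT (80.4 ± 6.80 CPM) to NOTCHWT_TCFKO (102 ± 3.32; 0.34 ± 0.08, adjusted p = 0.0107). Mef2c rose from 141 ± 12.2 CPM in NOTCHWT_TCFWT to 236 ± 11.1 in NICD_TCFWT (0.74 ± 0.12, adjusted p = 0.00194) and was at 138 ± 11.4 in NICD_TCFKO (-0.77 ± 0.12 against NICD_TCFWT, adjusted p = 0.00278). Runx1, chosen after its values were seen, moved the other way: it was lower in NICD_TCFWT than in NOTCHWT_TCFWT (-0.64 ± 0.12, adjusted p = 0.00386) and higher in NICD_TCFKO than in NICD_TCFWT (0.61 ± 0.12, adjusted p = 0.00891).

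Across the 12 libraries the log2 CPM of Pf4 followed that of Vwf (Pearson r 0.959), Gp9 (0.885), Gp1bb (0.881) and Treml1 (0.855), and not that of Itga2b (-0.05). These libraries share the 4 groups and the scaling, so the values are descriptions. Genes most like Pf4 and Plek were sought among tested genes that reach a mean of 5 CPM in any group. Predicted genes and clones named by number, pseudogenes and genes without a symbol were left out. Those most like Pf4 were Gcnt1 (r 0.966), Adamtsl5 (0.966), Dusp3 (0.963), Vwf (0.959) and Hk3 (0.951), the last at 5.69 CPM in NOTCHWT_TCFWT and 193 in NICD_TCFWT. Those most like Plek were Fam210a (0.939), Adcy9 (0.93), Vill (0.929), Ralgapa2 (0.929) and Hgf (0.924).

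Marker lists of other cell types, which share no gene with the members, were mixed: some differed between the same groups, in either direction, and others did not. The 10 stem cell genes summed to 210.6 to 273.1 CPM in NOTCHWT_TCFWT, 554.6 to 757.7 in NICD_TCFWT, 159.8 to 376.3 in NICD_TCFKO and 484.1 to 831.4 in NOTCHWT_TCFKO, and 7 of the 10 had a called interaction, all 7 below 0, in the contrast where 27.4% of all tested genes were called. Much of that sum was Hlf, at 94.4, 377, 121 and 406 CPM by group mean. From NOTCHWT_TCFWT to NOTCHWT_TCFKO 9 of the 10 estimates were above 0 and 1, Slamf1, was below (10.4 and 6.66 CPM). The 9 granulocyte and monocyte genes summed to 104.6 to 216.3, 1717 to 6341, 406.1 to 1227 and 1611 to 8596 CPM in the same order, also with 7 called interactions, all below 0. Most of this sum in NICD_TCFWT and NOTCHWT_TCFKO was Mpo, with group means of 2697 and 3792 CPM. The 8 T lineage genes summed to 329.1 to 358, 25.21 to 48.02, 765.5 to 2283 and 20.13 to 39.62 CPM, and 4 of the 8 had a called interaction, all above 0. In NOTCHWT_TCFWT that sum was mostly Lck (203 CPM) and Trbc2 (136), the 2 genes called lower in NICD_TCFWT and in NOTCHWT_TCFKO, and Bcl11b, Cd3d, Cd3e, Cd3g and Ptcra were under 0.4 CPM there, with Cd3g and Ptcra at 0 in NICD_TCFWT and Ptcra at 0 in NOTCHWT_TCFKO. The sums of the 10 erythroid genes overlapped between NOTCHWT_TCFWT and each other group, at 649 to 1875, 807.7 to 845.2, 522.3 to 787.8 and 981.9 to 3188 CPM. Among those other groups they did not overlap, with NOTCHWT_TCFKO highest and NICD_TCFKO lowest. All 10 estimates were above 0 in NOTCHWT_TCFKO against NICD_TCFWT, and 9 were below 0 in NICD_TCFKO against NOTCHWT_TCFKO. In the 6 pairwise contrasts together 1 gene was called. The 7 B lineage genes summed to 22.87 to 30.74, 28.95 to 32.9, 27.88 to 30.08 and 28.59 to 60.47 CPM in the same order. The 8 mast cell and basophil genes summed to 255.1 to 428.4, 159.5 to 189.1, 194.4 to 287.2 and 78.73 to 475.1 CPM, with 1 called interaction above 0 and 3 below. Most of this sum in NOTCHWT_TCFWT and NICD_TCFKO was Cpa3, with group means of 276 and 206 CPM. From NOTCHWT_TCFWT to NICD_TCFWT 3 of the 8 were called higher and 1 lower, with 20.4% of all tested genes called. In NOTCHWT_TCFKO the highest erythroid, B lineage and mast cell sums, 3188, 60.47 and 475.1 CPM, were all those of library 2. Its other libraries were at 981.9 and 1326, 28.59 and 34.84, and 78.73 and 197.7. The part of stem, myeloid, B or T lineage cells in the members' differences was not tested.

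**Figure D4:**
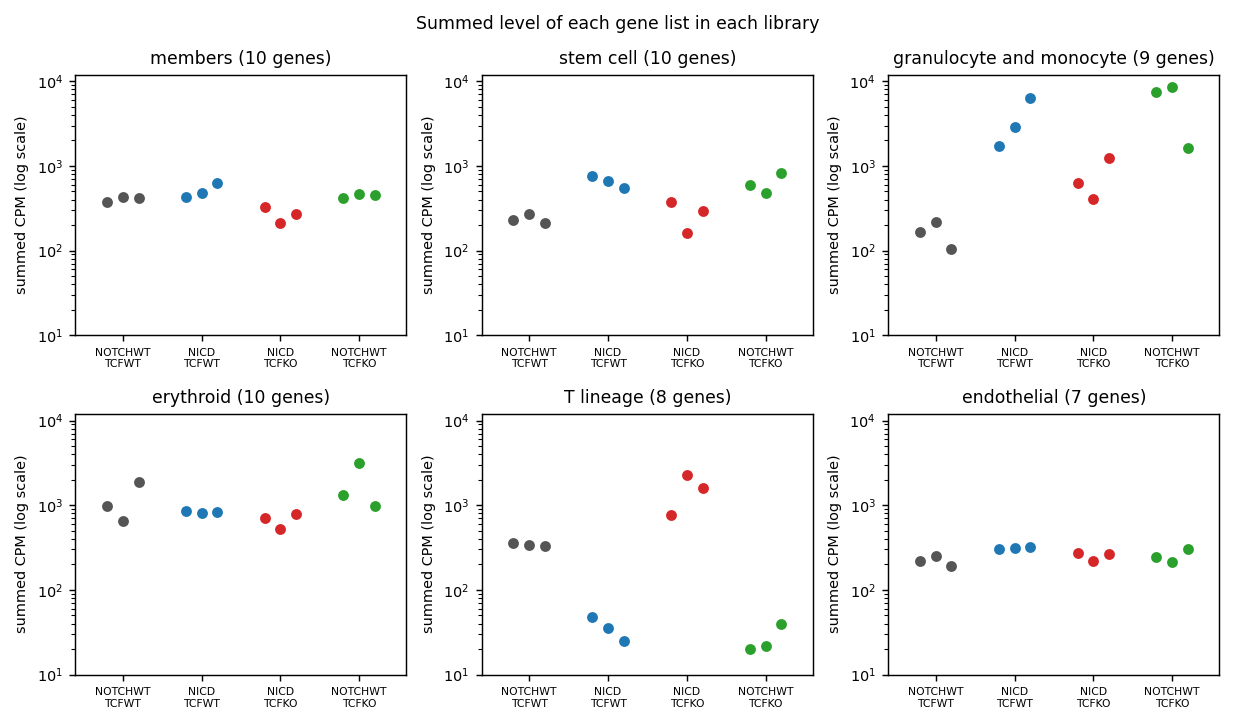
Summed CPM of the 10 members and of 5 marker lists in each library (vertical axis, log scale; horizontal axis, the 4 labelled groups; points are libraries). The members' sum, which Plek and Itga2b dominate, spans 212.5 to 634.5 CPM, while the granulocyte and monocyte sum spans 104.6 to 8596 and the T lineage sum 20.13 to 2283.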

How the data were processed

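RNA was isolated with a PicoPure kit and sequenced as single-end reads of 75 nt after TruSeq and Nextera XT preparation, per the labels' protocols. The deposited values are raw counts per Ensembl gene, and HISAT2, cutadapt 1.9.1, limma, edgeR 3.28.0, bcl2fastq 2.17 and featureCounts 1.4.4 are named, without roles and beside the mm10 build, per the submitters' processing notes. Whether counting used strand is not given in the sources used here. Reads in any stretch shared by Plek and its antisense neighbour Cnrip1 therefore cannot be told apart, and the size of that stretch was not examined. The authors also deposited a table of log2 values for 15759 genes, which was not used for tests.

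Symbols and positions came from GENCODE M21 (mm10) and matched 37607 of 39017 genes. After edgeR's filterByExpr, 16024 genes were tested, which took 99.92% or more of every library's counts; CPM refers to library sizes scaled by TMM. The 12 libraries entered 1 quasi-likelihood fit with a term per group (edgeR 4.0.16 under R 4.3.3), and contrasts were tested by the two-sided quasi-likelihood F test at a Benjamini-Hochberg adjusted p under 0.05. An SE was obtained from F, as the size of the log2 change over the root of F. On simulated data for NICD_TCFWT against NOTCHWT_TCFWT (15802 genes, 200 changed), 61% of the 2-fold and 85% of the 4-fold changes were recovered, with 5 false calls. The changed genes were drawn only from those above a minimum mean count, so these rates do not cover genes with few counts. The share changed was also smaller than the 20.4% of tested genes called in the measured contrast.

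The alternatives were relative log expression size factors, no filter, a filter of 1 CPM in 3 libraries, DESeq2 1.42.0, limma-voom 3.58.1, the groups of a contrast alone, a replicate block, a covariate for library sets, each library left out and, chosen after seeing the data, a covariate for Y-linked transcripts. All 10 members, 8 fixed pathway genes (1 of which is not reported here), up to 3 more called pathway genes per contrast by smallest p, and the 5 genes most like Pf4 and Plek (r of log2 CPM, prior count 1) were named by rule. The members and lists were chosen with earlier results of these data known.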

Additional observations from a re-analysis of the deposited data

Results flagged for a closer look

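The change between the Tcf7 labels differed between the Notch1 labels for 14 of the platelet and megakaryocyte genes named, by the test of the interaction itself (log2 scale, edgeR quasi-likelihood F test, adjusted p 6.82e-07 to 0.0119). Some of the 14 were named for a small p in these data, and Runx1 after its values were seen, so 14 gives no share. Of all 9 tested members 6 were called, and of all 42 tested pathway genes 5 were called above 0 and 14 below. Over all tested genes 27.4% were called. Among the members the differences were -8.06 for Pf4, -5.34 for Gp1bb, -3.45 for Vwf, -3.01 for Gp9, -2.82 for Treml1 and -1.28 for Plek. Among the other platelet and megakaryocyte genes they were -8.10 for Ppbp, -6.40 for Clu, -2.997 for P2ry12, -1.45 for Mef2c and -0.53 for Fermt3, and, with the opposite sign, 8.30 for Slc35d3, 1.83 for Itgb3 and 1.12 for Runx1. Tcf7 RNA moved in opposite directions in the same pair of changes, by 6.78 with the Notch1 transgene label and by -3.55 without it.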

How the results depend on the processing

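All 26 member calls kept their sign under every alternative run. The number of members called from NOTCHWT_TCFWT to NICD_TCFWT was 5, and 3 to 5 without 1 library. From NICD_TCFWT to NICD_TCFKO it was 6, and 3 to 7 without 1 library. From NOTCHWT_TCFWT to NOTCHWT_TCFKO it was 3, but 1 with no filter on low counts and 1 to 4 without 1 library. Between NICD_TCFKO and NOTCHWT_TCFKO it was 4, but 7 with DESeq2, 1 with only the groups of the contrast and 1 to 4 without 1 library. Between NICD_TCFKO and NOTCHWT_TCFWT it was 2, but 1 with no filter, limma-voom, the covariate for library sets, the covariate for Y-linked transcripts or only the groups of the contrast, and 0 to 2 without 1 library. It stayed at 0 between NOTCHWT_TCFKO and NICD_TCFWT. Causes were not tested.

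With the replicate block, 1 member was called between NICD_TCFKO and NOTCHWT_TCFWT, and Treml1 lost its calls between NICD_TCFWT and NOTCHWT_TCFWT and between NICD_TCFKO and NOTCHWT_TCFKO. Over all groups together the numbers showed no common pairing: same-numbered deviations correlated at -0.41 to 0.46 (median 0.03, 18 pairs) and others at -0.45 to 0.47 (median -0.01, 36 pairs). Between NICD_TCFWT and NICD_TCFKO alone, same-numbered libraries correlated at 0.31, 0.10 and 0.46. The other pairs of these groups lay at -0.45 to 0.26, and a pairing of these groups alone was not tested.

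Counts of the 42 pathway genes called moved as well: 14 became 6 to 20, 8 became 5 to 19, 15 became 9 to 21, 13 became 5 to 23, 6 became 2 to 10 and 1 became 0 to 4 over the alternatives of the 6 contrasts in the order above. Gp1bb, Tubb1, Ppbp and P2ry12 rest on few counts, which limits their precision. So does Clu in NOTCHWT_TCFWT, with 6 counts in the group. Ppbp had 3 counts in NICD_TCFKO and P2ry12 had 25 in NOTCHWT_TCFWT.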
